A study of Mus musculus with 6 samples.

Results

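The immunity-related GTPases (IRG) and guanylate-binding proteins (GBP) are large GTPases that mouse cells make in response to interferon-gamma. In infected cells they gather on the vacuoles of parasites and bacteria and help to break them open. Among the IRG proteins, Irgm1, Irgm2 and Igtp are regulators that sit on the cell's own membranes and hold effectors such as Iigp1 and Ifi47 inactive there. Promoters of genes of this kind often carry interferon response elements, ISRE and GAS, and any cell type of a vessel wall with an interferon-gamma receptor can make them. Here 10 genes of these families were followed in aorta: the regulators Irgm1, Irgm2 and Igtp, the effectors Iigp1 and Ifi47, and the guanylate-binding proteins Gbp2, Gbp3, Gbp6, Gbp7 and Gbp9. They were chosen by name, with earlier results of these data known. On the array 22180 genes have a probe set listing no other gene, and Ifi47 and Gbp2 are not among them.

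Aorta from 3 samples of mice deficient in endothelial nitric oxide synthase (eNOS, the enzyme of the vessel lining that makes nitric oxide) was compared with aorta from 3 wild-type samples of matched age. Total RNA of each sample was hybridised to 1 Affymetrix array, and values are log2 signals, so a difference of 1 is a doubling. Samples are named by the numbers in their titles, 11, 15 and 19 for eNOS-deficient and 2, 3 and 5 for wild type. The labels name no allele, strain, sex, age or array batch. They do not say that each sample is a separate animal either, and the p-values therefore describe the spread among these 6 samples, which may be technical.

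Of the 10 genes, 8 had 1 probe set of their own each. The other two, Ifi47 and Gbp2, were listed only on probe sets shared with another gene, Olfr56 and Gbp2b, and have no value of their own here. Gbp6 measured 2.87 to 3.57 across the 6 arrays, under the dim filter level of 4.38 log2 (the 25th percentile of all probe sets), and was not tested. The remaining 7 entered a test over 18007 genes, and counts over these 7 say nothing of the 3 genes left out. Each of these genes belongs to a family of close copies, and whether a probe set also reads a copy was not tested.

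Some arrays stood apart in cell type markers. On eNOS-deficient 11, 13 of 15 T and NK cell markers and 7 of 7 B cell markers had their lowest value of the 6 arrays. The T and NK marker mean was 5.44 log2 there, 6.93 and 7.29 on eNOS-deficient 15 and 19, and 6.40 to 6.72 in wild type. On wild type 5 the squamous epithelium marker mean (12 genes) was 8.14, against 5.36 to 6.19 on the other 5 arrays. Smooth muscle markers were bright on every array, with a mean of 9.48 to 10.05 over 8 genes. The adipocyte marker mean (7 genes) was higher than that on every array, at 10.91 to 11.33. The skeletal muscle marker mean (10 genes) ran from 8.89 on wild type 3 to 11.22 on eNOS-deficient 11. Nos3, the targeted gene, was lower by 0.48 log2 in eNOS-deficient aorta (limma standard error 0.19, adjusted p = 0.399, exact permutation p = 0.2 where 0.1 is the smallest possible), and its groups overlapped. Because wild type 5 lay at 7.36 for Nos3, inside the eNOS-deficient range, this neither checks nor contradicts the label of a single array. Selected results below are therefore also given without eNOS-deficient 11 or wild type 5.

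Promoter sequences show the interferon elements that these genes carry and how alike they are. RefSeq promoters (GRCm38.p6) were searched for 7 of the 10 genes. Those of Iigp1, Gbp6 and Gbp9 were not searched, and the counts below say nothing of them. The 250 bases before each start were searched on both strands for short motifs. These were GAAANNGAA, 9 letters from the core of the interferon-stimulated response element (ISRE), and TTCNNNGAA, the gamma-activated site (GAS). Counted per gene, with a match before any of its starts, the ISRE letters were present in 6 of the 7 and the GAS letters in 3. Counted per promoter instead, over all 32851 promoters of the table, 7.13% held the ISRE letters, 7.02% the GAS letters and 0.752% both. The stretch around the matches is printed for the 5 of these genes that were tested, with the matched letters in capitals, 5′ to 3′ on the gene's own strand. It holds letters only; binding was not measured.

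Gbp3, chr3:142559988-142560026, plus strand: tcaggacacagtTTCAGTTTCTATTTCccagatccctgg
Gbp7, chr3:142530218-142530304, plus strand: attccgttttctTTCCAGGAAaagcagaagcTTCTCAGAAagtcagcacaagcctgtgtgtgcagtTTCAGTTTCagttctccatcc
Irgm1, chr11:48871424-48871462, minus strand: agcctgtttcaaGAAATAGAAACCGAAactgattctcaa
Igtp, chr11:58199499-58199542, plus strand: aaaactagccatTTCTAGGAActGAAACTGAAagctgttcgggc
Irgm2, chr11:58214890-58214933, plus strand: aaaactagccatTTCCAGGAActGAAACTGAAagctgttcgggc

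Gbp3 and Gbp7, which are neighbours on chromosome 3, both hold the ISRE letters on the opposite strand, and Gbp3 holds 2 copies that overlap. The GAS letters occur 2 times in Gbp7 and were not found in the Gbp3 window; a second Gbp3 start in the table has neither motif before it. Irgm1 has 2 overlapping ISRE matches. The stretches of Igtp and Irgm2, which are also neighbours, were identical at 43 of 44 bases and differed only by T16C, counted from the 5′ end of the printed Igtp stretch, a base in the middle of the GAS match that leaves the match intact.

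None of the 7 genes tested passed the test over all genes (limma with Benjamini-Hochberg adjustment, threshold 0.05; 0.0278% of all genes passed). At an unadjusted p under 0.05, 2 of the 7 were lower in eNOS-deficient aorta, Iigp1 and Gbp3, and 0 were higher, where 3.72% of all genes were lower and 7.86% higher. The same 2 genes were those whose eNOS-deficient arrays all lay below every wild-type array, which held for 6.48% of all genes; the opposite, higher without overlap, held for 0 of the 7 and for 13.1% of all genes. The median difference of the 7 was -0.16 log2, and over all genes tested it was 0.036. Without eNOS-deficient 11 the median of the 7 was 0.050 and that of all genes 0.041. Without wild type 5 these medians were -0.22 and 0.0013. The shares over all genes moved with the scaling: with arrays centred on their medians 2.15% were lower and 11.3% higher at the unadjusted threshold, and 3.75% lay lower and 18.2% higher without overlap. With array weights 7.22% were lower and 11.8% higher at that threshold.

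**Figure D1:**
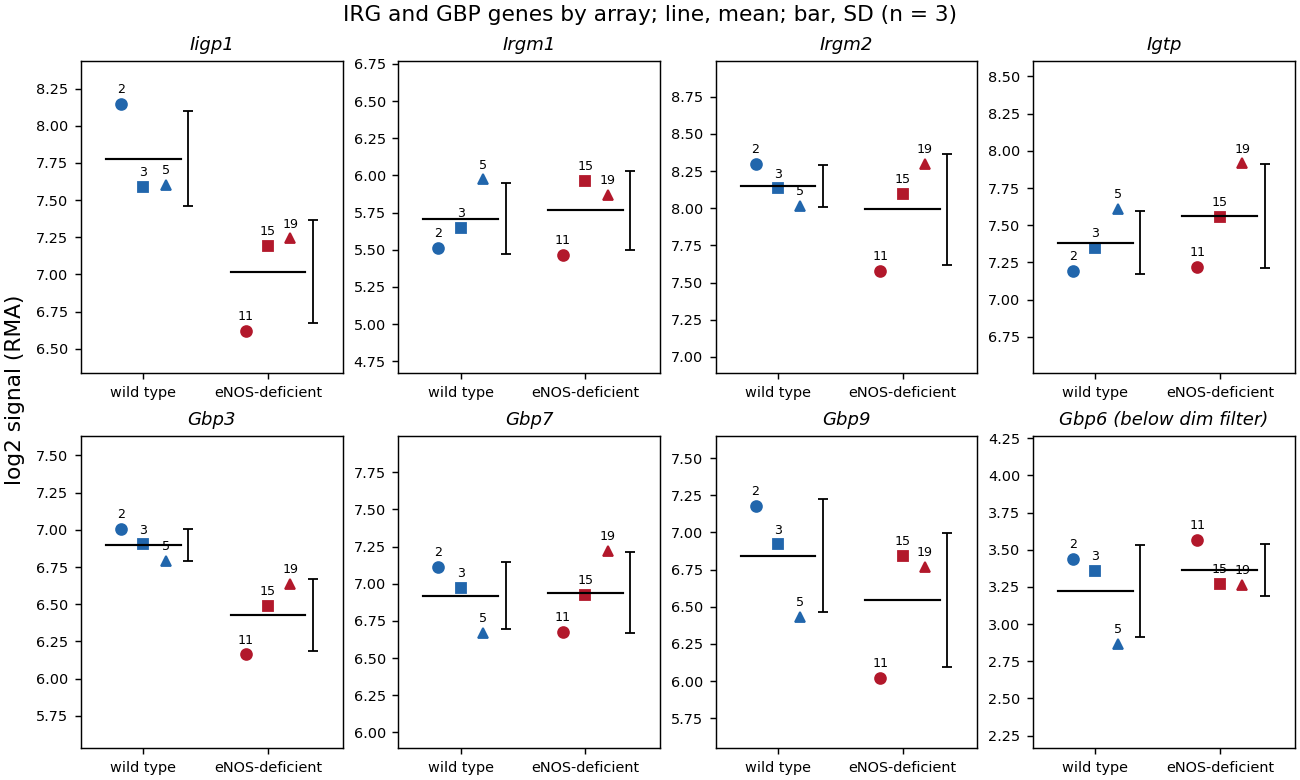
Log2 signal (vertical axis, each panel the same height in log2 units) of the 8 genes with a probe set of their own on each of the 6 arrays, labelled by sample number. Lines are group means and bars 1 SD with n = 3. Iigp1 and Gbp3 show eNOS-deficient arrays that all lie under the wild-type arrays, and eNOS-deficient 11 is the lowest of the 6 arrays for Iigp1, Irgm1, Irgm2, Gbp3 and Gbp9.

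Iigp1 encodes Irga6, an effector that coats the vacuole of Toxoplasma gondii. It measured 6.62, 7.19 and 7.24 log2 on eNOS-deficient 11, 15 and 19 and 8.15, 7.59 and 7.60 on wild type 2, 3 and 5. The highest eNOS-deficient array thus lay 0.35 log2 under the lowest wild-type array. The means were 7.02 ± 0.35 (SD, n = 3) and 7.78 ± 0.32, a difference of -0.76 (standard error 0.23, 95% interval -1.29 to -0.23). In linear terms wild-type signal was 1.70-fold higher, with an interval from 1.17 to 2.45. This did not pass over all genes (limma adjusted p = 0.314, unadjusted p = 0.0114). Without eNOS-deficient 11 the difference was -0.56 (limma unadjusted p = 0.0306), and without both eNOS-deficient 11 and wild type 5 it was -0.65 (limma adjusted p = 0.214).

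The arrays of all 3 regulators overlapped between the groups. Irgm1, whose product is found on mitochondria and the Golgi and guards against harm by the effectors, measured 5.46, 5.96 and 5.87 on eNOS-deficient 11, 15 and 19 and 5.51, 5.65 and 5.97 on wild type 2, 3 and 5. Both groups covered nearly the same range, and the difference was 0.055 (95% interval -0.38 to 0.49, limma adjusted p = 0.938). Irgm2, its Golgi relative, measured 7.58, 8.10 and 8.30 against 8.30, 8.13 and 8.02, so that eNOS-deficient 11 alone was low and eNOS-deficient 19 was as high as any wild-type array. Its difference of -0.16 (interval -0.62 to 0.31, limma adjusted p = 0.811) was 0.050 without eNOS-deficient 11. Igtp, also called Irgm3 and placed on the endoplasmic reticulum, measured 7.22, 7.56 and 7.92 against 7.19, 7.35 and 7.61. Here a wild-type array, 2, was the lowest and an eNOS-deficient array, 19, the highest, and the difference was 0.18 (interval -0.30 to 0.66, limma adjusted p = 0.778). It was 0.35 without eNOS-deficient 11, 0.0037 without eNOS-deficient 19, 0.084 without wild type 2 and 0.29 without wild type 5. The intervals of all 3 regulators include 0 and reach 0.31 log2 or more to either side except on the lower side of Igtp, at -0.30, so an unaltered level of the regulators was not shown.

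Gbp3 was the guanylate-binding protein gene with separated groups. It measured 6.16, 6.49 and 6.63 on eNOS-deficient 11, 15 and 19 and 7.004, 6.90 and 6.79 on wild type 2, 3 and 5. The gap between the groups was 0.16 log2, less than the spread of 0.47 among the eNOS-deficient arrays. The means were 6.43 ± 0.24 and 6.90 ± 0.11 (SD, n = 3), a difference of -0.47 (standard error 0.15, 95% interval -0.83 to -0.11, limma adjusted p = 0.341, unadjusted p = 0.0171). Without eNOS-deficient 11 it was -0.34 (limma unadjusted p = 0.0533), and without wild type 2 it was -0.42 (limma unadjusted p = 0.0581), both outside the unadjusted threshold. With both eNOS-deficient 11 and wild type 5 left out it was -0.39 (limma unadjusted p = 0.0248).

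The other guanylate-binding proteins overlapped between the groups. Gbp9, of the chromosome 5 cluster, measured 6.02, 6.84 and 6.77 on the eNOS-deficient arrays and 7.18, 6.92 and 6.43 on the wild-type arrays, with eNOS-deficient 11 and wild type 5 the low array of each group. Its difference was -0.30 (95% interval -0.94 to 0.34, limma adjusted p = 0.720), and it ran from -0.037 without eNOS-deficient 11 to -0.50 without wild type 5 (limma unadjusted p = 0.105). Gbp7, which takes part in delivering oxidant-producing and autophagy proteins to bacteria, measured 6.68, 6.92 and 7.22 against 7.11, 6.97 and 6.67. The 2 groups covered nearly the same range, and the difference was 0.023 (interval -0.41 to 0.45, limma adjusted p = 0.977). The dim Gbp6 averaged 3.37 ± 0.17 and 3.22 ± 0.31 (SD, n = 3).

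**Figure D2:**
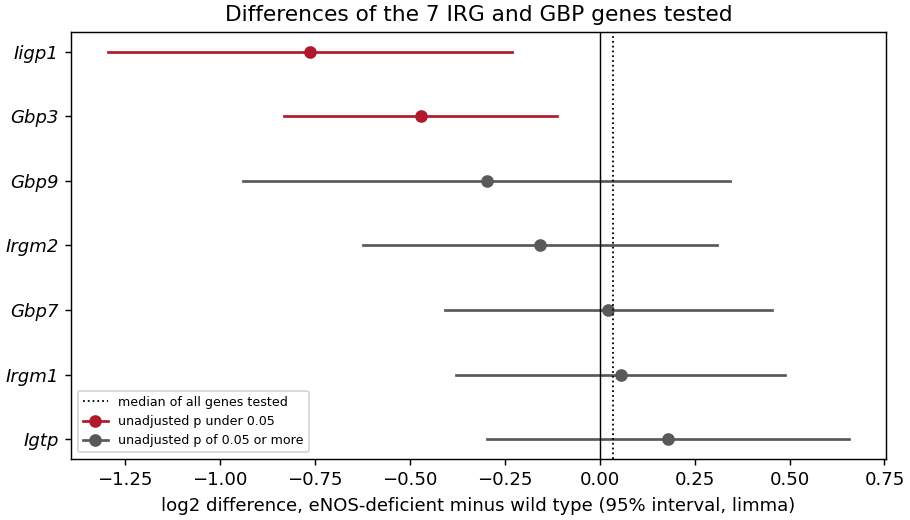
Log2 difference between eNOS-deficient and wild-type means (horizontal axis) with limma 95% intervals for the 7 genes tested; the dotted line is the median of all genes tested, 0.036. The intervals of Iigp1 (-1.29 to -0.23) and Gbp3 (-0.83 to -0.11) lie below 0, and the other 5 include 0.

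Array by array, eNOS-deficient 11 lay below the wild-type mean for 7 of the 7 genes, by 0.17 (Igtp) to 1.16 log2 (Iigp1). On eNOS-deficient 15, 4 of 7 lay below it, and on eNOS-deficient 19, 3 of 7. Averaged over the 7 genes, the signal was 6.53, 7.01 and 7.14 on eNOS-deficient 11, 15 and 19 and 7.21, 7.07 and 7.01 on wild type 2, 3 and 5. The T and NK marker mean (5.44, 6.93 and 7.29 on the eNOS-deficient arrays) and the B cell marker mean (6.09, 8.03 and 8.29, against 7.87 to 8.57 in wild type) ran in the same order over these 3 arrays. On eNOS-deficient 15 and 19 the T and NK marker mean lay above every wild-type array and the B cell marker mean inside the wild-type range. On these arrays Iigp1 stood 0.59 and 0.54 and Gbp3 0.41 and 0.27 below the wild-type mean. Fewer cells of a type and less RNA per cell cannot be told apart in whole tissue, and the part of the lymphocyte markers in these values was not tested.

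**Figure D3:**
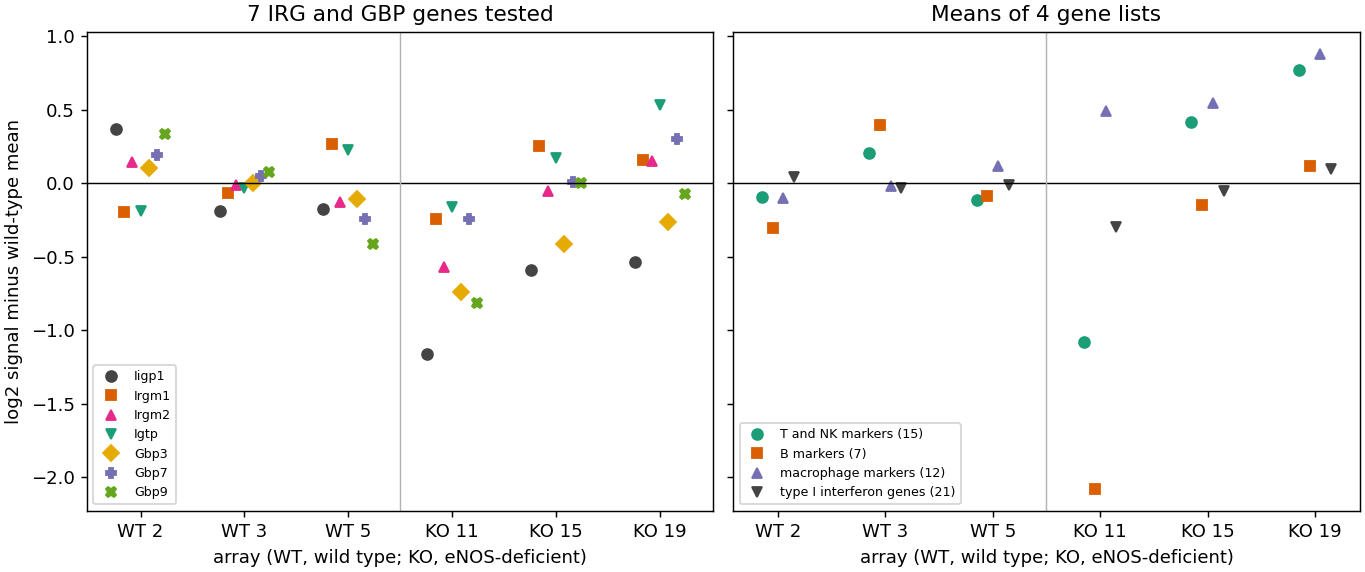
Log2 signal minus the wild-type mean on each array, for the 7 genes tested (left) and for the means of 4 gene lists (right; number of genes in brackets). On eNOS-deficient 11 all 7 genes and the T and NK, B cell and type I interferon lists are below 0, while on eNOS-deficient 19 Iigp1 and Gbp3 remain below 0 with the T and NK mean above it.

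Some other cell type marker lists also differed in mean between the groups, and 0 of their genes passed in limma over all genes. At an unadjusted p under 0.05, 7.86% of all genes were higher and 3.72% lower. With genes under the 50th percentile left out, these shares were 10.6% and 2.14%. Of 12 macrophage markers 8 were higher at the unadjusted threshold. The macrophage list mean was 7.99, 8.05 and 8.38 on the eNOS-deficient and 7.40 to 7.62 on the wild-type arrays. Mrc1, the mannose receptor, differed by 0.90 log2 (limma adjusted p = 0.129). Fibroblast markers were higher at the unadjusted threshold for 4 of 8, with a median difference of 0.55, and smooth muscle markers for 3 of 8, with one of 0.36. Without wild type 5 the fibroblast median was 0.82, with 2 of 8 negative, and the macrophage median was 0.70, against 0.57 with all arrays. Without eNOS-deficient 11 the smooth muscle median was 0.26. Endothelial markers (12 genes) had a median of -0.24, with 1 higher and 0 lower, and ran from 7.80 on wild type 5 to 8.65 on wild type 3. Dendritic cell and class II genes (8, median -0.085), adipocyte markers (7, median 0.093; Adipoq 0.43 and Lep -1.03 at the unadjusted threshold) and skeletal muscle markers (10, median 0.50, with 11.22 on eNOS-deficient 11) had groups whose means overlapped. Without eNOS-deficient 11 the dendritic cell and class II median was 0.20 and the skeletal muscle median 0.072. The skeletal muscle median was 0.043 without wild type 3 and 1.01 without wild type 5, where the adipocyte median was 0.0013. The endothelial median ran from -0.49 without wild type 5 to -0.11 without wild type 2. Of 12 squamous markers 2, Krt4 and Krt13, were lower at the unadjusted threshold, and the median of the 12 was -0.67, or -0.15 without wild type 5. T and NK markers (15, median 0.020) and B cell markers (7, median -0.60) had 0 in either direction at that threshold. Their medians rested on eNOS-deficient 11 and were 0.64 for T and NK and -0.098 for B cell markers without it. The part of these markers in the differences of Iigp1 and Gbp3 was not tested.

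Of 18 other IRG and GBP family genes listed, 14 were measured, and 0 of these had separated groups. Tgtp1, Tgtp2, 9930111J21Rik1 and Gvin1 had no value of their own, and the counts below say nothing of them. Of 14 other IRG and GBP genes measured, 10 had a negative and 4 a positive difference, the median was -0.12, and 0 passed in limma at the adjusted or at the unadjusted threshold; over all genes tested 43.4% of differences were negative. Without eNOS-deficient 11, 5 were negative and 9 positive, with a median of 0.12, and without wild type 5 the median was -0.25. On eNOS-deficient 11, 7 of the 14 had their lowest value. Gbp8, next to Gbp9 in the chromosome 5 cluster, had the widest spread: 4.47, 6.93 and 8.12 on eNOS-deficient 11, 15 and 19 against 7.54, 7.04 and 6.46 in wild type (chosen after its values were seen). Gbp4, which measured 6.04, 6.98 and 7.05 against 7.92, 7.09 and 6.61, and Gbp5, an activator of inflammasomes, at 5.61, 6.42 and 6.35 against 6.67, 6.66 and 5.91, shared with Gbp9 a low eNOS-deficient 11 and a low wild type 5. Gbp2b differed by 0.36 (limma adjusted p = 0.495).

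Family genes that lie next to each other had differences of both signs. On chromosome 3, Gbp3 (-0.47) lies between Gbp7 (0.023) and Gbp2b (0.36), and Gbp5, on the far side of Gbp7, differed by -0.29. On chromosome 18, Iigp1 (-0.76) has F830016B08Rik and Gm4951 as the nearest listed family genes, and F830016B08Rik measured 7.60, 7.01 and 6.98 against 6.84, 6.40 and 7.10, a difference of 0.42 (limma adjusted p = 0.527). It was highest on eNOS-deficient 11, where Iigp1 was lowest. Gm4951 differed by -0.27 and was low on eNOS-deficient 11 alone (6.80, with 7.98 to 8.59 on the other 5 arrays; it was named after its values were seen). On chromosome 11, which holds Irgm1, Igtp and Irgm2, the 7 family genes measured ran from -0.27 to 0.25. The differences between neighbours were not tested.

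**Figure D4:**
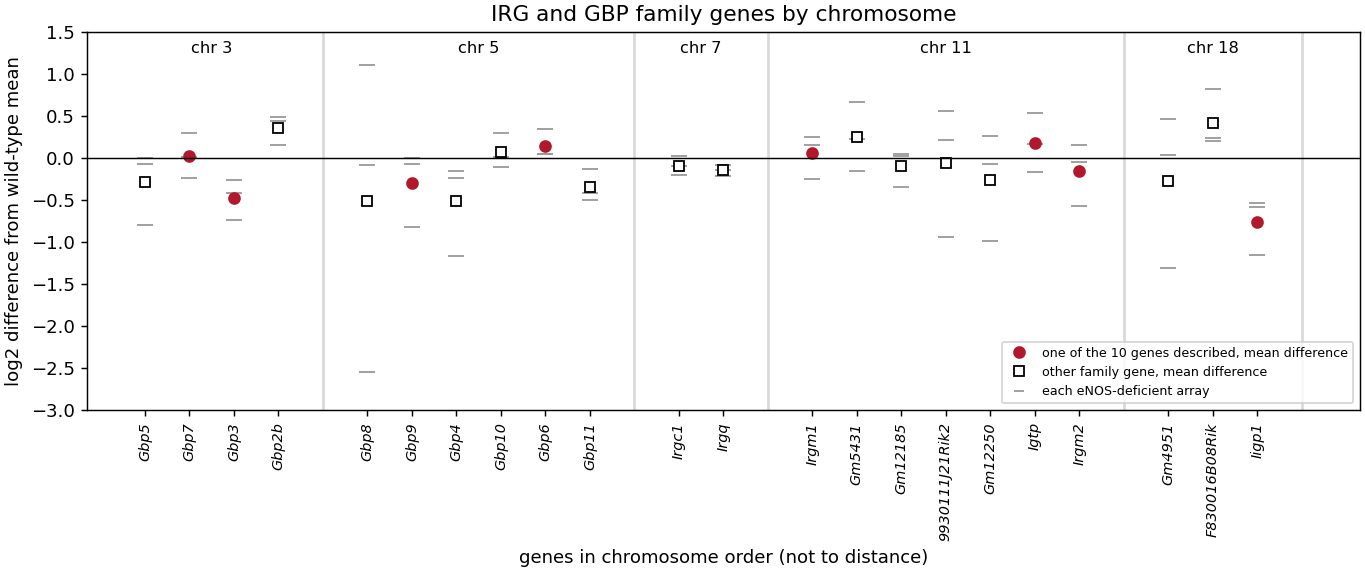
Log2 difference from the wild-type mean (vertical axis) for each measured IRG and GBP family gene, in chromosome order and not to distance. Filled circles are the genes described here and open squares other family genes; short grey lines are the 3 eNOS-deficient arrays. Iigp1 has all 3 lines below 0 and its neighbour F830016B08Rik all 3 above it.

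Interferon-gamma and its receptor chains had mean differences above 0, none of which passed. Ifng was dim, at 5.09, 4.95 and 5.10 on the eNOS-deficient and 4.98, 5.04 and 4.80 on the wild-type arrays. The receptor chains Ifngr1 and Ifngr2 differed by 0.37 and 0.14 (limma adjusted p = 0.514 and 0.666). Irf1, the transcription factor that interferon-gamma induces, measured 7.03, 7.54 and 7.53 against 7.82, 7.51 and 7.30, with overlap of the groups. Of 16 genes of the ligand, receptor and signalling list, 0 passed in limma over all genes, 0 were lower and 1 higher at the unadjusted threshold, and the median was 0.052 (0.12 without eNOS-deficient 11 and -0.029 without eNOS-deficient 19). The 1 gene was Ptpn2, a protein tyrosine phosphatase, at 7.66 ± 0.11 against 7.34 ± 0.15 (SD, n = 3; limma adjusted p = 0.418).

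Targets of interferon outside the families were measured in 2 lists. Of 22 interferon-gamma inducible genes, 0 passed in limma over all genes, and 1 was lower and 1 higher at the unadjusted threshold, with a median of 0.033 (0.077 without eNOS-deficient 11 and -0.069 without wild type 5). Acod1, the itaconate-making enzyme of macrophages, differed by -0.29 at a dim level of 4.82 ± 0.075 against 5.10 ± 0.029, and Serping1, the C1 inhibitor, by 0.98 (limma adjusted p = 0.294). The chemokine Cxcl9 (-0.21), the peptide transporter Tap1 (-0.36) and the immunoproteasome subunit Psmb8 (-0.00689) had groups that overlapped; these 3 were chosen after their values were seen. Of 21 type I interferon-stimulated genes, 1 was lower and 0 higher at the unadjusted threshold (0 passed in limma over all genes, median -0.064, and 0.018 without eNOS-deficient 11). That gene, the antiviral Rsad2, measured 6.24, 6.64 and 6.59 on the eNOS-deficient and 7.08, 7.26 and 7.22 on the wild-type arrays, without overlap (difference -0.69, limma adjusted p = 0.218).

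The autophagy proteins that load IRG and GBP proteins onto vacuoles, together with inflammasome genes, were measured as a list of 20 genes. Of these, 6 had a negative difference, where 43.4% of all genes did, and 4 were higher at the unadjusted threshold, where 7.86% of all genes were. These shares depend on brightness, and the list was bright, with group means of 8.31 and 8.19 log2. With genes under the 50th percentile left out, 34.1% of genes were negative and 10.6% higher. In the list 0 were lower and 0 passed in limma over all genes. The list median was 0.14, and 0.086 without wild type 5. The 4 were Atg5 (0.31) and Atg12 (0.42), which form the conjugate that lipidates LC3 proteins, the LC3 relative Gabarapl2 (0.47) and the ubiquitin-conjugating enzyme Ube2l3 (0.42), with limma adjusted p from 0.387 to 0.427. Atg5 measured 7.59, 7.78 and 7.77 against 7.38, 7.46 and 7.38, without overlap.

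The genes whose values over the 6 arrays most resembled the mean of the 7 were picked from 15256 protein-coding genes by Pearson's r, as a description. They were Rassf5, Hells, Def6, Arid4a, Slamf7, Mms22l, Tap1, Parp14, Acap2 and H2-M3, with r from 0.984 to 0.997 and Spearman's rho from 0.829 to 1. All 10 had their lowest value on eNOS-deficient 11. The mean of the 7 was lowest on that array too, so the choice by r largely fixed this and it is no separate result. Tap1, for instance, measured 7.02 on eNOS-deficient 11 and 8.07 to 8.53 on the other 5 arrays.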

How the data were processed

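Each of the 6 aorta RNA samples, 3 per genotype, was read on 1 array. The deposited values are log2 signals made by the authors with RMA in Affymetrix Expression Console 1.3.1, per the submitters' processing notes, and were used unchanged; probe-level values were not used here. Of 41345 probe sets, 23521 list exactly 1 gene symbol in the platform annotation. The brightest probe set per gene was kept, and genes under the 25th percentile were left out, leaving 18007. Groups were compared in R 4.3.3 by limma 3.58.1 (linear model with empirical Bayes variances, two-sided, without covariates), with Benjamini-Hochberg adjustment over all genes at 0.05; the median standard error was 0.16 log2. The genes and lists were chosen with earlier results of these data known. Named were the 10 genes, Nos3, Ifng and Irf1, the 10 genes most like their mean and, from each list, up to 4 genes by smallest p; exceptions are marked. In simulated data of 18007 genes with 3 arrays per group, 63% of genes shifted by 1 log2 and 89% of those shifted by 2 were recovered, with 3 false calls. The simulated noise was independent between genes, without shifts shared by many genes on 1 array. No simulated shift was smaller than 1 log2, and the largest difference of the 7 genes was -0.76 (Iigp1). The recovery rates therefore do not describe these genes. Promoters came from RefSeq (GRCm38.p6). Plots were drawn with matplotlib 3.10.9. The number of arrays limits the precision.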

Additional observations from a re-analysis of the deposited data

How the results depend on the processing

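Under 13 other settings and 1 more chosen after seeing the data (without eNOS-deficient 11 and wild type 5), 0 of the 7 genes passed over all genes in limma. Iigp1 ran from -0.87 to -0.56 and Gbp3 from -0.57 to -0.34, and the groups of both were also separate with arrays centred on their medians and with quantile normalization repeated. At the unadjusted threshold 1 to 2 of the 7 passed when 1 array was left out, 1 without eNOS-deficient 11 or without wild type 2. Over all genes 2.38% to 5.93% were lower and 4.96% to 8.93% higher in these fits. Without both eNOS-deficient 11 and wild type 5, 4 of the 7 passed, with Irgm1 (0.34) and Igtp (0.47) as higher. In that fit 6.2% of all genes were lower and 9.47% higher. Near 0, directions turned: Gbp7 was -0.00069 with quantile normalization repeated and -0.069 with array weights, and leaving out 1 array gave Gbp7 -0.12 to 0.15, Irgm1 -0.045 to 0.20 and Irgm2 -0.31 to 0.050. The median of the 7 ran from -0.31 to 0.050. The count of all genes past the test, 5 as reported, was 3 with no filter on dim genes, 2 when probe sets of a gene were averaged, 2 with quantile normalization repeated, 119 with array weights, 0 to 6 when 1 array was left out and 2 without both eNOS-deficient 11 and wild type 5; the cause was not tested. No paired analysis was possible because the groups share no sample number.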
